A study of Saccharomyces cerevisiae with 3 samples.

Results

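The measurements compare the array signal of DNA cleaved by a histone H2b fusion with that of uncleaved DNA along chromosome VI of Saccharomyces cerevisiae, the budding yeast. The method was chromatin endogenous cleavage (ChEC), in which micrococcal nuclease (MN), which cuts DNA when calcium is present, is attached to a protein so that the cuts fall close to where the protein sits in the cell. The DNA was then hybridised to a tiling array of the chromosome, which reads it as short groups of probes called probe sets. The comparison is H2b-MN minus uncleaved DNA on the log2 scale, at all 1250 of the 1250 probe sets, so no probe set was chosen by its value. It uses 2 of the 3 samples of the study. The third, a fusion of the nucleoporin Nup2, is set beside H2b-MN at single places.

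The groups were H2b-MN DNA cleaved in vivo for 1 min on ice, Nup2-MN DNA cleaved in vivo for 5 min at 30 °C, and uncleaved DNA. All of them came from yeast grown in logarithmic phase on 2% raffinose and given 2% galactose for 1 h. The labels give no strain, no copy of the H2b gene and no fusion for the uncleaved sample. The Nup2-MN and H2b-MN samples therefore differ not only in the fusion but also in how long and how warm the cleavage was. Each group had 1 column, the authors' mean of 3 independent experiments, and the spread of those experiments was not analysed here. Every value below is thus a description of 1 mean against 1 mean: the variation from experiment to experiment could not enter any of them, and no p-value is given.

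Histone H2B pairs with H2A, and H2A-H2B dimers join a core of H3 and H4 to form the nucleosome, around which most nuclear DNA is wrapped. Micrococcal nuclease cuts mainly in the linker DNA between nucleosomes and in nucleosome-free DNA, which in yeast is often found at promoters. A nuclease carried on a histone that sits along most of the genome can therefore cut wherever chromatin leaves DNA open to it. Whether a cut raises or lowers the signal of a probe set on this array is not stated by the labels or notes, so "higher" and "lower" below mean the signal in H2b-MN DNA relative to uncleaved DNA and nothing more. Probe sets carry identifiers such as c6Mbo0830, whose number is taken as their order along the chromosome. No source used here states that order. Their coordinates and genes were not used here, so the label could not be set against known linkers or promoters.

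The H2b-MN profile was flat at most probe sets, with scattered high and low points. The median signal was 7.58 in H2b-MN DNA and 7.57 in uncleaved DNA, and the median difference was -0.04. Of the 1250 probe sets, 892 (71.4%) lay within 0.5 of 0 and 545 (43.6%) within 0.25. The middle 50% of the differences ran between -0.35 and 0.25, and the SD over probe sets was 0.50. Above 0 lay 575 probe sets (46.0%). At least 2-fold higher in H2b-MN (a log2 difference of 1 or more) were 35 probe sets, 2.80% of all, and at least 2-fold lower were 30, or 2.40%. At 0.5 or more stood 168 probe sets (13.4%), and at -0.5 or less 190 (15.2%). The largest differences were few: 4 probe sets reached 1.5 and 4 reached -1.5.

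**Figure D1:**
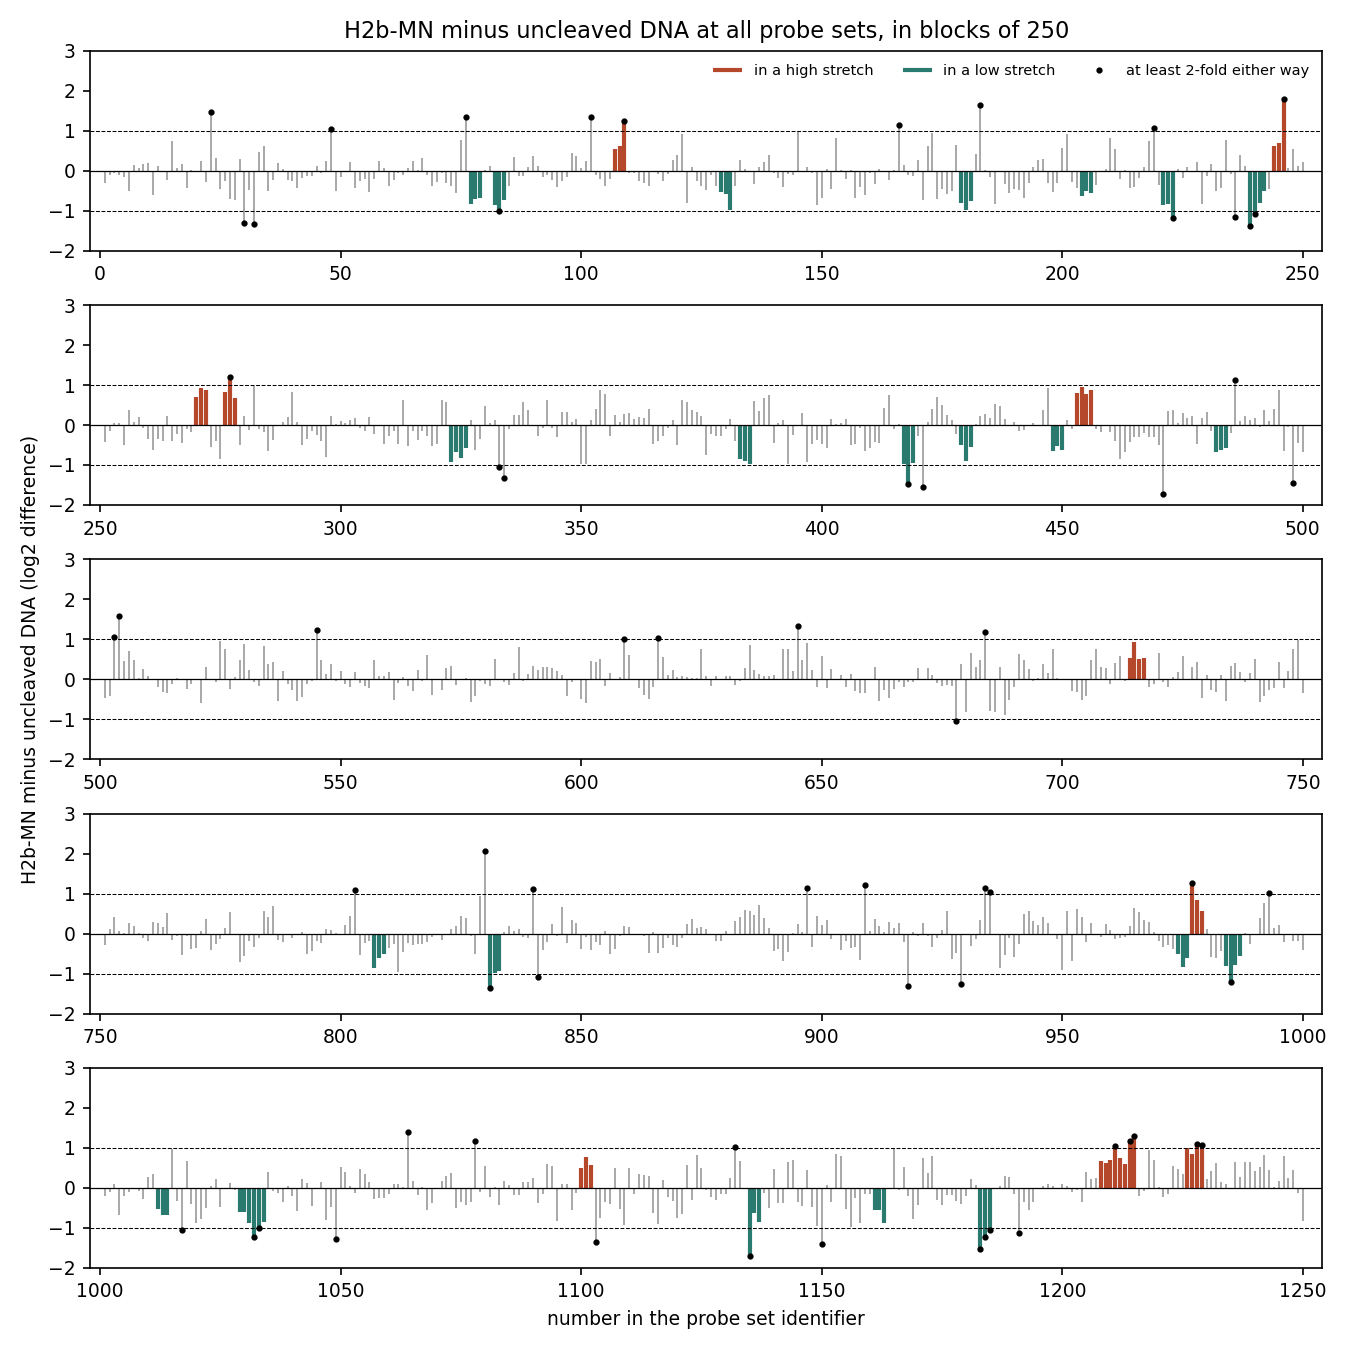
Log2 difference between H2b-MN and uncleaved DNA (vertical axis) at each of the 1250 probe sets, by identifier number (horizontal axis), in 5 blocks of 250. Grey lines are single probe sets, black points are those at least 2-fold either way, dashed lines mark 2-fold, and coloured lines mark stretches of 3 or more neighbours at 0.5 or more (red) or at -0.5 or less (green); the 501 to 750 block holds no green stretch.

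The highest probe set was c6Mbo0830, with a signal of 9.83 in H2b-MN DNA and 7.76 in uncleaved DNA, a 4.20-fold difference. The next was c6Mbo0246, at 8.45 in H2b-MN and 6.65 in uncleaved DNA (3.49-fold). It was followed by c6Mbo0183, at 7.52 in H2b-MN and 5.88 in uncleaved DNA (3.12-fold), and by c6Mbo0504, at 8.43 in H2b-MN and 6.85 in uncleaved DNA (3.00-fold). These 4 are the probe sets past 1.5 on the log2 scale. The other members of the 10 highest had log2 differences of 1.46 (c6Mbo0023), 1.40 (c6Mbo1064), 1.35 (c6Mbo0102), 1.34 (c6Mbo0076), 1.32 (c6Mbo0645) and 1.30 (c6Mbo1215). Their uncleaved signals ran from 4.88 at c6Mbo1064 to 7.67 at c6Mbo0645, next to a median of 7.57 over all probe sets. The brightest of the 10 in uncleaved DNA was c6Mbo0830, at 7.76.

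The lowest probe set was c6Mbo0471, with a signal of 5.79 in H2b-MN DNA and 7.51 in uncleaved DNA, a log2 difference of -1.73. Close to it were c6Mbo1135, at 5.93 in H2b-MN and 7.62 in uncleaved DNA (-1.69), c6Mbo0421, at 7.10 and 8.63 in the same order (-1.54), and c6Mbo1183, at 7.61 and 9.13 (-1.52). The rest of the 10 lowest lay between -1.47 (c6Mbo0418) and -1.35 (c6Mbo1103). They include c6Mbo0831, which directly follows the highest probe set of the chromosome.

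Many high probe sets stood alone. A single high site was defined as a probe set at 1 or more whose neighbours on both sides are under 0.5, and 15 of the 35 high probe sets (42.9%) were of this kind. With the dimmest 10% of probe sets left out the number was 8, since a site that loses a neighbour is then not counted either. The highest was c6Mbo0183, at 1.64, with 0.43 at the probe set before it and 0.03 at the one after. The site c6Mbo0023 had 1.46 between -0.27 and 0.33, and c6Mbo1064 had 1.40 between 0.01 and 0.17. The sites c6Mbo0102 (1.35, between 0.25 and -0.12) and c6Mbo0645 (1.32, between 0.21 and 0.48) complete the 5 largest. The neighbours of these 5 sites lay between -0.27 and 0.48. At c6Mbo1064 the signal was 6.28 in H2b-MN DNA and 4.88 in uncleaved DNA, which is close to the dimmest uncleaved value on the array (4.64).

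The other 20 high probe sets had a neighbour at 0.5 or more on at least 1 side. That is 57.1% of the 35, while 24.2% of all probe sets had such a neighbour. Pairs that were 2-fold higher side by side numbered 4: c6Mbo0503 with c6Mbo0504, c6Mbo0934 with c6Mbo0935, c6Mbo1214 with c6Mbo1215, and c6Mbo1228 with c6Mbo1229. High probe sets with both neighbours at 0.5 or more numbered 4. The spacing between one high probe set and the next had a median of 26 and ran from 1 to 209.

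The elevation around high probe sets was narrow. Over the 35 high probe sets the mean difference was 1.23 ± 0.24 (SD over sites) at the site itself, which is what chose them. It was 0.34 ± 0.51 at the probe set before and 0.16 ± 0.66 at the probe set after. At 2 positions before and after, the means were 0.02 and -0.02, next to -0.03 over all probe sets, and at 3 positions they were -0.03 and -0.06. Of the 35 preceding neighbours 26 were above 0 and 14 were at 0.5 or more. Of the 35 following neighbours 22 were above 0 and 10 were at 0.5 or more. Over all probe sets 46.0% were above 0 and 13.4% were at 0.5 or more. Some of these neighbours are themselves high probe sets. Whether the side before differs from the side after was not tested.

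Around low probe sets the mean was below that of all probe sets at 2 positions as well, but the median only on the side after was clearly so. Over the 30 low probe sets the mean was -1.27 ± 0.19 at the site, which again chose them, -0.36 ± 0.76 just before it and -0.37 ± 0.59 just after. At 2 positions it was -0.16 ± 0.65 before and -0.30 ± 0.49 after, and at 3 positions -0.08 and -0.06. At 2 before, the median was -0.05, next to -0.04 over all probe sets, and 15 of the 30 were below 0. At 2 after, the median was -0.33 and 22 of the 30 were below 0, next to 675 of 1250 over all probe sets. Some of these neighbours are themselves low probe sets. Means of similar size occurred farther out: -0.15 at 4 positions before high probe sets and 0.15 at 5 positions after low ones. Of the 30, 17 (56.7%) had a neighbour at -0.5 or less, as did 26.5% of all probe sets, and 13 (43.3%) stood alone with both neighbours above -0.5. The 5 largest single low sites were c6Mbo0471, c6Mbo0421, c6Mbo0498 (-1.44, between -0.06 and -0.44), c6Mbo0032 (-1.34, between -0.49 and 0.46) and c6Mbo0030 (-1.30, between 0.29 and -0.49). The -0.49 beside c6Mbo0030 and c6Mbo0032 is 1 shared probe set, c6Mbo0031, so these sites count as single only because it lies just inside the limit. Several of these neighbours lay just inside the limit of -0.5: the probe set before c6Mbo0471 stood at -0.50 when rounded. The number of single low sites was 3 when neighbours had to be above -0.25, and that of single high sites was 9 when they had to be under 0.25.

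**Figure D2:**
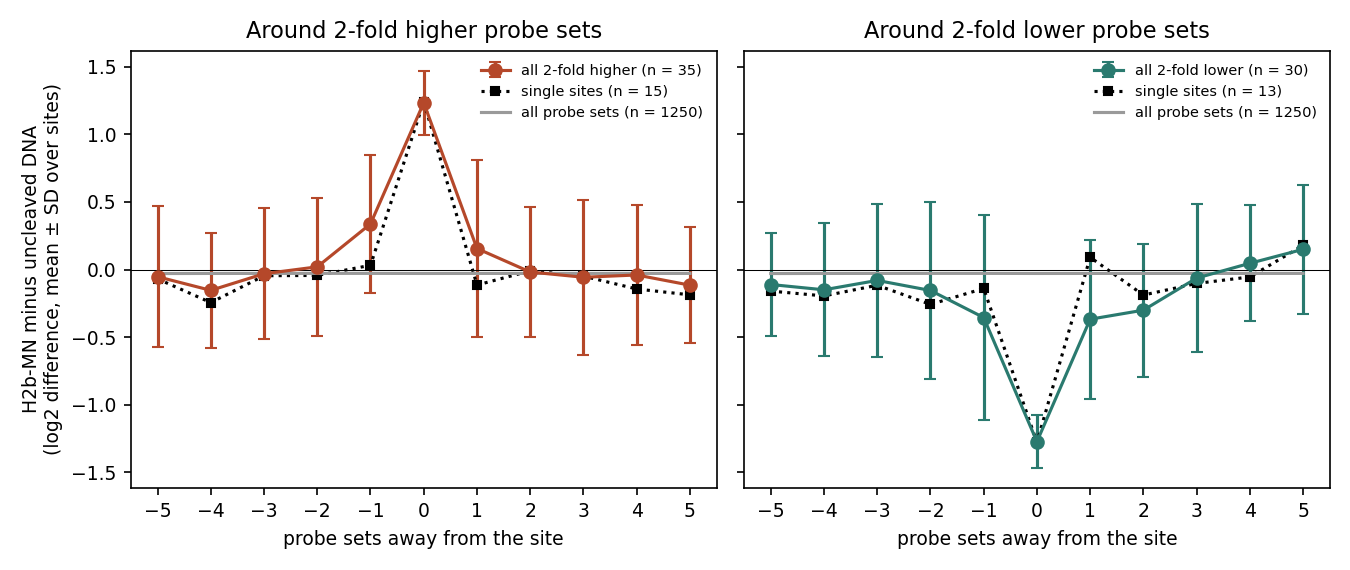
Mean log2 difference between H2b-MN and uncleaved DNA (vertical axis) at 5 probe sets before to 5 after a site (horizontal axis), for the 35 probe sets at least 2-fold higher (left, red) and the 30 at least 2-fold lower (right, green), with SD over sites as error bars. Dotted black lines are the single sites (15 and 13) and grey lines are all 1250 probe sets; at 2 and 3 positions the mean around high sites lies within 0.1 of the grey line.

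High and low values met directly at a few places. The largest step between neighbours on the chromosome was at c6Mbo0830 and c6Mbo0831, where the difference was 2.07 at the first and -1.37 at the second. In signal, c6Mbo0831 read 8.78 in H2b-MN DNA and 10.15 in uncleaved DNA, so that the H2b-MN column was above the uncleaved column at one probe set and below it at the next. The low values went on through c6Mbo0832 (-0.995) and c6Mbo0833 (-0.94), and the difference was back at 0.04 at c6Mbo0834. On the other side c6Mbo0829 was at 0.93. The second such step was at c6Mbo0840 (1.12) and c6Mbo0841 (-1.09), and these were the 2 places where a 2-fold higher and a 2-fold lower probe set touched.

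The third step joined c6Mbo0076, at 1.34, to a low stretch at c6Mbo0077 (-0.83), c6Mbo0078 (-0.72) and c6Mbo0079 (-0.69). In the opposite order, c6Mbo0974 to c6Mbo0976 were low (-0.52, -0.84 and -0.62) and c6Mbo0977 to c6Mbo0979 were high (1.26, 0.83 and 0.57). Such meetings were no more common among high probe sets than among all probe sets in these counts: 8 of the 35 (22.9%) had a neighbour at -0.5 or less, while 26.5% of all probe sets had one. Of the 30 low probe sets, 5 (16.7%) had a neighbour at 0.5 or more, while 24.2% of all probe sets had one. The median step between neighbours was 0.27 in size, and 4 of 1249 steps were 2 or more.

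Low stretches were defined as 3 or more neighbours that were each at -0.5 or less. There were 22, and they held 72 probe sets, 37.9% of the 190 at or below that limit. High stretches, by the mirrored rule, numbered 10 and held 38 probe sets, 22.6% of the 168 at 0.5 or more. Of the low stretches 18 had the minimum length of 3 and 4 were longer, and their means ran from -1.27 to -0.57 with a median of -0.80. A 2-fold lower member was present in 9 of the 22. Conversely, 13 of the 30 low probe sets (43.3%) lay in a low stretch, and 9 of the 35 high ones (25.7%) lay in a high stretch.

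The longest low stretch was probe sets 1029 to 1034, with a mean difference of -0.86. Its differences were -0.60, -0.62, -0.89, -1.23, -1.002 and -0.85 in order, lowest at c6Mbo1032, where the signal was 8.61 in H2b-MN DNA and 9.84 in uncleaved DNA. It began after a probe set at -0.04 and ended before one at 0.39. The deepest low stretch was 1183 to 1185, at -1.52, -1.23 and -1.07, with 0.07 before it and -0.04 after it. Its mean signal was 7.11 in H2b-MN DNA and 8.38 in uncleaved DNA. The values of 1029 to 1034 thus became lower over its first 4 members, while 1183 to 1185 was lowest at its first.

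Stretches of equal length were ordered by the size of their mean, which put 1183 to 1185 and 417 to 419 first among the 18 low stretches of 3. Probe sets 239 to 242 were deepest at their first member, c6Mbo0239, and shallower at each next one (-1.38, -1.09, -0.80 and -0.51). Probe sets 984 to 987 (mean -0.85) and 323 to 326 (mean -0.75) also held 4 members. Probe sets 417 to 419 had a mean of -1.13, with c6Mbo0418 at -1.47, and were followed by c6Mbo0420 at -0.26 and by the single low site c6Mbo0421 at -1.54. Of the 22 low stretches, 8 were bordered on at least 1 side by a probe set at 0.5 or more. In 3 of these a border was 2-fold higher: 77 to 79, 831 to 833 and 974 to 976. Among all probe sets, 24.2% had a neighbour at 0.5 or more. The borders of a low stretch lie above -0.5 by definition, so the shares are not alike. A difference between them was not tested.

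The longest high stretch was probe sets 1208 to 1215, with a mean of 0.85 over 8 members and differences from 0.59 to 1.30. It ended at its highest member, c6Mbo1215, where the signal was 8.60 in H2b-MN DNA and 7.30 in uncleaved DNA, and the next probe set stood at -0.20. Probe sets 1226 to 1229 had the more even values 0.99, 0.85, 1.09 and 1.07. Probe sets 453 to 456 had a mean of 0.84, with 0.79, 0.94, 0.77 and 0.88 in order, and so formed a high stretch without a 2-fold member. It stood between neighbours at -0.11 and -0.10. A further high stretch of 4, probe sets 714 to 717, had the smaller mean of 0.63.

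Nup2-MN minus uncleaved was read at the same places. Both differences contain the same uncleaved column, so likeness between them is in part built in, and the values are set side by side only. At c6Mbo0830 H2b-MN minus uncleaved was 2.07 and Nup2-MN minus uncleaved was 2.41, and at c6Mbo0246 they were 1.80 and 1.85. At c6Mbo1064 they were 1.40 and 0.22, and at c6Mbo1078, another single high site, 1.17 and -0.26. Over the 15 single high sites H2b-MN ran from 1.05 to 1.64 with a median of 1.18. Nup2-MN ran from -0.26 to 1.43 with a median of 0.95. Over all 1250 probe sets the median of Nup2-MN minus uncleaved was -0.15, and 511 were above 0. Of all 35 high probe sets, 33 were above 0 in Nup2-MN minus uncleaved, with a mean of 1.00 over the 35. The single high sites c6Mbo1064 and c6Mbo1078 were named for being among the lowest of the 15 in Nup2-MN. Another of these lowest, c6Mbo0909, had 1.21 for H2b-MN and 0.09 for Nup2-MN.

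Over all 22 low stretches the means ran from -1.27 to -0.57 with a median of -0.80 for H2b-MN, and from -1.06 to 0.74 with a median of -0.73 for Nup2-MN. Probe sets 239 to 242 had a mean of -0.94 in H2b-MN minus uncleaved and -1.06 in Nup2-MN minus uncleaved, and 417 to 419 had -1.13 and -1.04. Probe sets 984 to 987 had -0.85 and -0.95, and 323 to 326 had -0.75 and -0.83. Of the 22 low stretches, 3 had a Nup2-MN mean above 0 and 19 had one below 0. By single probe sets, 511 of all 1250 were above 0 in Nup2-MN minus uncleaved. In 1029 to 1034 the means were -0.86 for H2b-MN and 0.39 for Nup2-MN, in 831 to 833 they were -1.10 and 0.50, and in 1183 to 1185 they were -1.27 and 0.74. In these 3 stretches every member was below 0 in H2b-MN and above 0 in Nup2-MN. The lowest Nup2-MN values in them were 0.02, 0.12 and 0.41. Over the 10 high stretches the median of the means was 0.85 for H2b-MN and 0.62 for Nup2-MN. The longest, 1208 to 1215, had 0.85 for H2b-MN and 1.09 for Nup2-MN, 1226 to 1229 had 1.00 and 0.81, and 453 to 456 had 0.84 and 1.32. The lowest Nup2-MN mean was at 107 to 109, with 0.80 for H2b-MN and -0.40 for Nup2-MN.

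**Figure D3:**
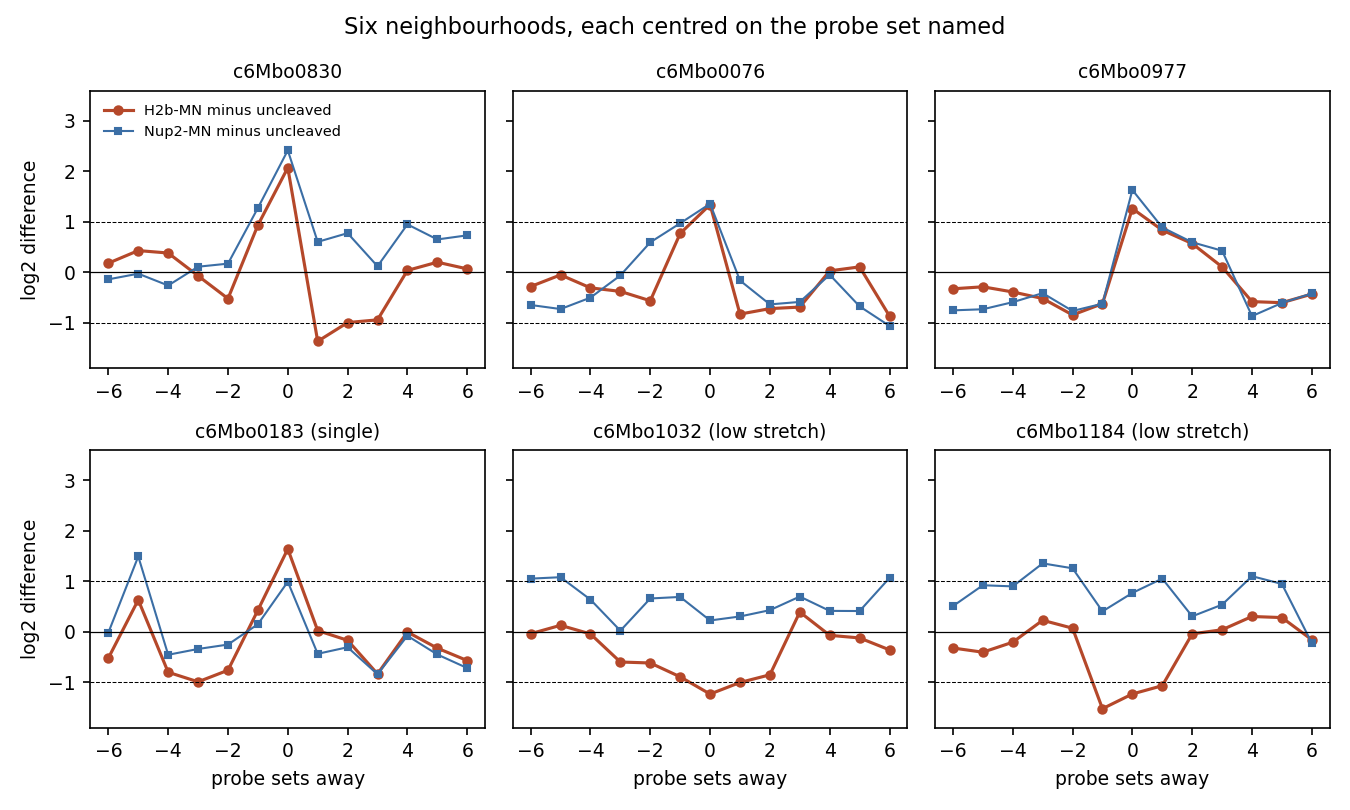
Log2 differences from uncleaved DNA (vertical axis) for H2b-MN (red circles) and Nup2-MN (blue squares) at 6 probe sets before to 6 after the probe set named above each panel (horizontal axis), with dashed lines at 2-fold. The H2b-MN line drops from 2.07 to -1.37 in 1 step after c6Mbo0830, and lies below the Nup2-MN line across the low stretches around c6Mbo1032 and c6Mbo1184. The 6 places were picked after their values were seen.

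Counts of sites and stretches differed between blocks of 250 identifier numbers, and whether they differ beyond an even spread was not tested. Over all probe sets 2.80% were high and 2.40% were low. Probe sets 1 to 250 held 9 high and 7 low probe sets, 7 low stretches and 2 high stretches. Probe sets 251 to 500 held 2 high and 6 low probe sets, 6 low stretches and 3 high stretches. In 501 to 750 there were 7 high probe sets and 1 low probe set (c6Mbo0678, at -1.03). That block held 0 low stretches and 1 high stretch, and its SD over probe sets was 0.42, next to 0.56 in 1001 to 1250. The blocks 751 to 1000 and 1001 to 1250 held 9 and 8 high probe sets and 5 and 11 low ones. They held 4 and 5 low stretches and 1 and 3 high stretches. The middle of the numbers was thus the block with the fewest low probe sets.

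No high probe set occurred in the 208 probe sets from 278 to 485. There 5 were 2-fold lower, a count near the share of 2.40% over all probe sets. No low probe set occurred in the 179 from 499 to 677. The longest part without either was 685 to 802, with 118 probe sets, a mean of 0.04 and values from -0.90 to 0.98. The longest run with every value within 0.5 of 0 was 857 to 883, with 27 probe sets and an SD of 0.25.

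Averaged over 25 windows of 50 probe sets, the profile stayed within 0.15 of 0 in 20. The highest window mean was 0.41 ± 0.44 (SD over probe sets) in 1201 to 1250, where 40 of the 50 were above 0 and 5 were 2-fold higher. In that window the mean signal was 7.16 in H2b-MN DNA and 6.76 in uncleaved DNA, next to 7.45 and 7.48 over all probe sets. The 6.76 was the lowest uncleaved mean of the 25 windows. Mean Nup2-MN minus uncleaved, which shares the uncleaved column, was 0.62 there and also the highest of the 25. The next highest H2b-MN windows were 601 to 650 at 0.22 ± 0.40, with 38 above 0, and 501 to 550 at 0.14 ± 0.48. The lowest were 1001 to 1050 at -0.27 ± 0.49, with 14 above 0 and 4 that were 2-fold lower, then 1151 to 1200 at -0.18 ± 0.55 and 1101 to 1150 at -0.16 ± 0.63. The 2 windows next to each other at 1151 and 1201 thus lay among the lowest and at the highest of the chromosome. The window 551 to 600 varied least, with an SD of 0.29 and 0 probe sets past 2-fold in either direction.

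**Figure D4:**
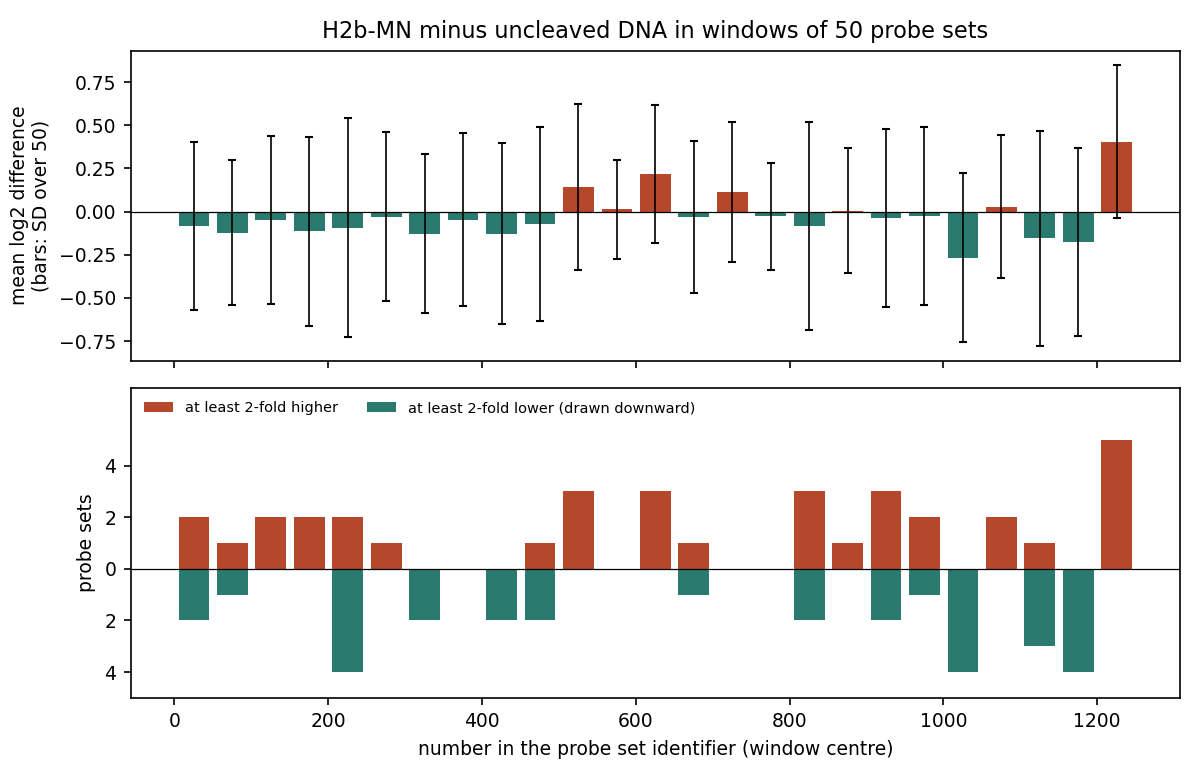
Top: mean log2 difference between H2b-MN and uncleaved DNA (vertical axis) in 25 windows of 50 probe sets by identifier number (horizontal axis), with SD over the 50 probe sets as error bars. Bottom: number of probe sets at least 2-fold higher (upward) and at least 2-fold lower (downward) in each window; the last window has 5 higher and 0 lower.

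At the 2 ends of the numbers, the mean was -0.15 over the first 5 probe sets and 0.10 over the last 5. The SD over all probe sets was 0.50, and a difference between the ends was not tested. The first 5 probe sets were all slightly below 0, from -0.30 at c6Mbo0001 to -0.05 at c6Mbo0003. The last 5 ran from 0.79 at c6Mbo1246 to -0.84 at c6Mbo1250. The last probe set read 10.36 in H2b-MN DNA and 11.19 in uncleaved DNA, and so lay below 0 in a window where most were above.

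The size of the differences moved with brightness. The probe sets were split by the mean signal of both columns into 5 classes of 250. The SD of the difference was 0.40 in the dimmest class (signal up to 6.22), then 0.54, 0.55 and 0.52, and 0.47 in the brightest. The dimmest class held 2 high and 2 low probe sets, and the middle class 9 and 10. When the uncleaved signal alone set the classes, the dimmest held 7 high and 0 low probe sets and the brightest 1 and 9. The uncleaved signal is itself part of the difference, so that split leans this way by construction.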

How the data were processed

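Biotin-labelled genomic DNA was hybridised to an Affymetrix chromosome VI tiling array. Per the README deposited with the data, the authors grouped the probes into probe sets of 16 or fewer that do not overlap a site of the restriction enzyme MboI, and computed log2 signals by RMA (robust multi-array average) in Bioconductor 1.5. The deposited log2 value is the authors' mean over 3 experiments. RMA includes quantile normalization, so a shift shared by most probe sets is removed before differences are taken. Precision is limited by the number of arrays, and SDs given here are over probe sets, not experiments.

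Samples were grouped by their descriptions, 1 column each. H2b-MN minus uncleaved was taken with no further normalization, filter or pseudocount, and no test was made. Thresholds were 1 (2-fold) for high and low probe sets and 0.5 for neighbours and stretches of at least 3. Named probe sets were the 10 highest and 10 lowest, the 5 largest single sites each way, the 6 longest low and 3 longest high stretches (ties by the larger mean in size), 3 windows at each extreme and 5 probe sets at each end; others were named after their values were seen. The rules and lists were chosen with earlier results of these data known. Of the 1250 identifiers, 0 matched the gene table at hand. Alternatives were median centring, quantile normalization of both columns, leaving out the dimmest 10%, removing a lowess trend with signal (span 0.4), leaving out 50 probe sets at each end, and other thresholds, stretch lengths and windows. Functions were tested on simulated data. The software was matplotlib 3.10.9, statsmodels 0.14.6, pandas 2.3.3, numpy 2.4.6 and Python 3.11.15.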

Additional observations from a re-analysis of the deposited data

Results flagged for a closer look

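Against uncleaved DNA, c6Mbo1185 was the 1 probe set past 2-fold in opposite directions: the log2 difference was -1.07 for H2b-MN and 1.06 for Nup2-MN. Its signals were 6.76 in H2b-MN, 8.88 in Nup2-MN and 7.83 in uncleaved DNA. It was singled out because the 2 fusions lay on opposite sides of uncleaved DNA there. This difference between the fusions was not tested, since each has 1 value.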

How the results depend on the processing

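Without the spread between experiments, the counts are of differences past a threshold and are not set against error. At a 1.5-fold threshold 133 probe sets were higher and 134 lower, against 35 and 30 at 2-fold. Single high sites (15) numbered 8 with the dimmest 10% left out, which also removes sites that lose a neighbour, and 9 with neighbours under 0.25. Single low sites (13) numbered 3 with neighbours above -0.25. With at least 4 members, low stretches numbered 4 (22 with 3) and high stretches 4 (10 with 3). With a limit of 0.4 the high stretches numbered 16. A changed threshold or length moves such counts by construction. The other 52 of 60 recomputed values differed from the reported count by no more than 1.5 times, or from the reported log2 value by under 0.1, and 0 changed sign. Among these 52, low stretches ranged from 15, with the trend with signal removed, to 32, with a limit of 0.4. With columns centred on their medians they numbered 24, and high stretches 8. The excess of low over high stretches (22 and 10) changed with the processing. It was smaller with the trend removed (15 low and 11 high), with quantile normalization (16 and 12) and without the dimmest 10% (20 and 10). It was larger with median centring (24 and 8) and with 50 probe sets at each end left out (22 and 8). With a limit of 0.4 the counts were 32 and 16, and with at least 4 members they were equal, at 4 and 4. All 60 recomputed values of the 20 highest and lowest probe sets, under centring, quantile normalization and trend removal, stayed past 2-fold and moved by at most 0.06. These probe sets were picked as the most extreme, and centring shifts every difference by the same 0.01. RMA had already applied quantile normalization, so this outcome was largely built in and says little about how stable they are. The mean just after a high probe set (0.16) was 0.09 with 50 probe sets at each end left out, and the mean just before it (0.34) was 0.27. No paired analysis was possible because each group has 1 column.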
